A study of Homo sapiens with 8 samples.

Results

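The proteasome genes described here are the rows of the deposited count table whose symbol is PSM followed by a letter from A to G and a number. That name covers the subunits of the 20S core, most of those of the 19S cap, the proteasome activators, the inhibitor-like protein PI31 and most assembly chaperones. A few cap subunits and the chaperone POMP carry other names and were counted among the linked genes below. There were 48 such genes among the 62700 rows of the table, and 46 of them had enough counts to be among the 17535 genes tested. Every sample was made from the monocytic leukaemia line THP-1 (human), differentiated into macrophages for 72 h with the phorbol ester PMA at 50 ng/mL and loaded with acetylated low-density lipoprotein, which turns macrophages into cholesteryl ester-rich foam cells. The 4 control libraries came from foam cells given vehicle (DMSO, under 0.1% by volume), and the 4 treated libraries (AF) from foam cells given 0.5 µM auranofin. The sample protocol has drug or vehicle start 24 h ahead of a 48 h load and continue to the end, whereas the design text places it after loading. The cells are 1 tumour-derived line made macrophage-like by a phorbol ester, and all groups share the line, the differentiation and the lipid load. The labels do not say that the libraries of a group came from separate cultures, so p-values measure only how these libraries vary, which may be technical variation. Library names share a stem in pairs (DMSO 1 and 2, DMSO 3 and 4, AF 1 and 2, AF 3 and 4). What a stem stands for is not given, so each group may hold fewer independent units than libraries.

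The proteasome is the protease that degrades ubiquitin-tagged proteins. Its core is a barrel of stacked rings: outer rings of alpha subunits, which gate entry, and inner rings of beta subunits, some of which carry the proteolytic sites. The cap recognises ubiquitin, and its ATPase ring unfolds the substrate and feeds it into the barrel. In macrophages and other immune cells the constitutive catalytic subunits can be replaced by interferon-inducible ones, which changes the peptides made for antigen presentation. Auranofin is a gold compound best known as an inhibitor of thioredoxin reductase, and it has also been described to inhibit the cap-associated deubiquitinases UCHL5 and USP14. When proteasome activity falls, the transcription factor NRF1 (gene NFE2L1) is known to raise most subunit genes together, so whether subunit mRNAs moved as a group is the question addressed here. RNA levels do not report on proteasome assembly or activity.

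Promoter sequence was taken from RefSeq windows (GRCh38.p14), which matched 42 of the 48 genes with 51 windows; PSMA7, PSMB1, PSMB6, PSMB7, PSMD4 and PSMG3 had no entry. The 5 stretches below are shown because they belong to the gene with the clearest difference (PSMC3) and to 4 genes with an unadjusted p of 0.041 to 0.0551 that hold the antioxidant core and lie on both sides of 0, picked after their values were seen. They run 5′ to 3′ along the gene's strand, within the 250 bases before the RefSeq start, and leave out every base that GENCODE 29 places in an exon. Capitals mark matches on either strand to the antioxidant response element core TGACNNNGC, the CCAAT box or the interferon response core GAAANNGAAA. No 2 matches overlap in these stretches.
PSMC3 (chr11:47426474-47426689, minus strand): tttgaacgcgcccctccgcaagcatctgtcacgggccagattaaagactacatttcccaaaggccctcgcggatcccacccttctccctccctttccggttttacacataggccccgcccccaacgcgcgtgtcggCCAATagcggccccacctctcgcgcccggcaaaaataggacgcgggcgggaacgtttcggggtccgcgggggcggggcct
PSMB3 (chr17:38752491-38752735, plus strand): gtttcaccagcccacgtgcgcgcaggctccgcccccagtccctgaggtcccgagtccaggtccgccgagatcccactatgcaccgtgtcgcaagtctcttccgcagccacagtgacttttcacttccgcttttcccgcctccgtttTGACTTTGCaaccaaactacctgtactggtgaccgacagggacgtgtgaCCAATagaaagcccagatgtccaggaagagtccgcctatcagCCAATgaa
PSMB9 (chr6:32853979-32854147, plus strand): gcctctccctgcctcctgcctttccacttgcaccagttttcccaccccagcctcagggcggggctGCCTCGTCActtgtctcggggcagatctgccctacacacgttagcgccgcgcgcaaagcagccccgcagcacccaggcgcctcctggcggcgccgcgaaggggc
PSMD12 (chr17:67366628-67366827, minus strand): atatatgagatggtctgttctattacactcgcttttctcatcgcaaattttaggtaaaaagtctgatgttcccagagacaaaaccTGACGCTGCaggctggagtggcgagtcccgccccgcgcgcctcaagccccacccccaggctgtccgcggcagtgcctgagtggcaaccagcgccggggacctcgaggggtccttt
PSME1 (chr14:24135944-24136157, plus strand): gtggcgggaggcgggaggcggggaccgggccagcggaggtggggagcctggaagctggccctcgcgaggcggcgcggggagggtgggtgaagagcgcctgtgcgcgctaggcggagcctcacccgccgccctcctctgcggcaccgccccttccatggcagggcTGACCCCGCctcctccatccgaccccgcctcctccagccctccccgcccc
The PSMC3 stretch held 1 CCAAT box and no match to the other cores. PSMB3 held 1 TGACNNNGC match and 2 CCAAT boxes, and PSMB9, PSMD12 and PSME1 held 1 TGACNNNGC match each, that of PSMB9 on the opposite strand. Outside these stretches, the full windows counted below also hold a CCAAT box for PSMB9 and a GAAANNGAAA match for PSME1.

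Depth was 19336073 to 32325981 counts per library. AF 1 stood apart, with 34.8% of its counts in ribosomal RNA against 0.747% to 0.968% in the other 7 libraries. Its proteasome share was 0.233% of all counts, and 0.358% once ribosomal RNA was left out, against 0.351% to 0.363% in the others. All 11 macrophage markers were tested, with summed levels of 5298 to 6063 CPM (counts scaled to library size) under DMSO and 4698 to 5106 CPM under AF. LYZ and MSR1 fell (log2 fold changes -0.95 and -0.73) and CD14 and ITGAM rose (0.33 and 0.43), and the part of this shift in the proteasome values was not tested. The marker sums of T cells, B cells, epithelium, fibroblasts and endothelium were at most 6.29 CPM in any library. EPCAM, KRT19, MS4A1, COL1A2 and EMCN were at 0 in all 8. Values of PSMA6, PSMA1, PSMA2 and PSMD9 are uncertain, since other genes on their strand cover 81.0%, 53.2%, 52.5% and 43.8% of their exon bases, and so is that of PSMD4, which shares 21.9% of its stretches of 50 bases with PIPSL. Genes on the opposite strand cover 82.2% of the exon bases of PSMC1, 50.4% of PSMD7, 27.2% of PSMC5, 17.3% of PSMG2, 15.9% of PSMD13 and 12% of PSME2, and at most 8.64% in any other member. Whether the counting used strand is not given in the sources used here, so these 6 values are uncertain too.

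The proteasome genes stayed close to their DMSO level as a group. With auranofin 0 of the 46 tested genes rose and 2 fell, PSMC3 and PSMA7 (4.35% called), where 15.4% of all tested genes were called, 7.62% higher and 7.81% lower (edgeR quasi-likelihood test, adjusted p under 0.05, Benjamini-Hochberg over 17535 genes). Among the 11118 genes with a mean level inside the range of the proteasome genes (3.63 to 196 CPM), 18.9% were called, 9.74% higher and 9.12% lower. These genes of like level share that range but were not matched in level within it. The part of level in comparisons with them was not tested. The median log2 fold change of the proteasome genes was 0.034, against 0.0050 over all tested genes, and single genes ran from -0.32 (PSMC3) to 0.20 (PSMA1). Their median absolute log2 fold change was 0.076, against 0.141 for genes of like level. An unadjusted p under 0.05 was reached by 8 of the 46 genes, 4 higher and 4 lower, where 29.7% of all tested genes and 34.8% of those of like level reached it. In such bulk libraries fewer cells expressing a gene and less RNA per cell cannot be told apart.

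The intervals limit how large a missed change could be between these libraries, with this scaling and fit. They do not bound a change between cultures if the libraries are technical repeats. The 95% confidence interval lay inside a 1.5-fold change in either direction for 45 of the 46 genes (97.8%), against 63.4% of all tested genes and 86% of genes of like level. PSMG4, at the lowest level of the 46, was the exception, with an interval of 0.664 to 1.08 times the DMSO level. Inside the narrower limit of 1.25-fold lay 35 genes (76.1%), against 30.3% of all tested genes and 43.1% of those of like level. Summed over the 46 genes, the level was 3241, 3420, 3440 and 3258 CPM in DMSO libraries 1 to 4 and 3436, 3360, 3315 and 3445 CPM in AF libraries 1 to 4. These sums overlapped between the groups.

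**Figure D1:**
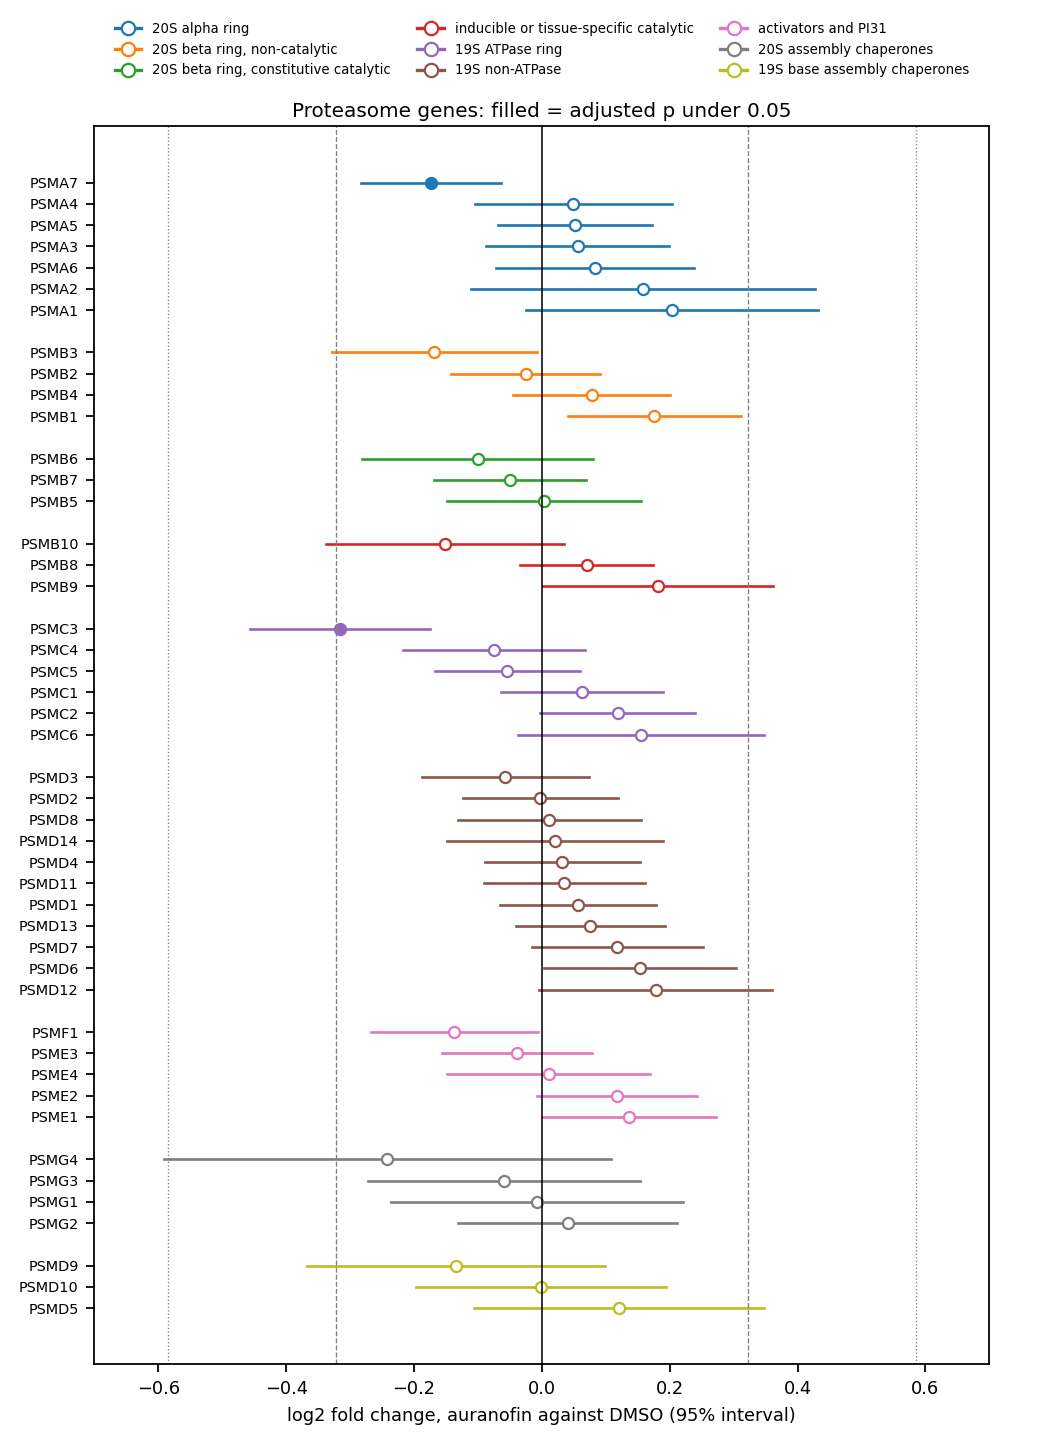
Log2 fold change of each tested proteasome gene, auranofin against DMSO (x axis), with its 95% confidence interval as a line, genes grouped by role; filled circles are genes with an adjusted p under 0.05. Dashed lines mark 1.25-fold and dotted lines 1.5-fold in either direction. PSMC3 (-0.32) and PSMA7 (-0.17) are filled, and the PSMG4 line is the only line that crosses a dotted line.

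In the alpha ring, 1 of the 7 tested genes fell, none rose, and the median log2 fold change was 0.06. PSMA7 gave 111, 118, 113 and 108 CPM in DMSO libraries 1 to 4 and 104, 99.6, 98.6 and 96.5 CPM in AF libraries 1 to 4. Every AF library lay below every DMSO library; 9.68% of all tested genes had that arrangement. The log2 fold change of PSMA7 was -0.17 ± 0.05 (SE), adjusted p = 0.0335 in edgeR. In the 8 fits that left out a library the log2 fold change stayed between -0.20 and -0.15. The call was lost in 6 of them, those without DMSO 1, 2 or 3 or AF 1, 2 or 3 (adjusted p 0.0541 to 0.107), and held without DMSO 4 (0.0231) or AF 4 (0.0392). PSMA1, the gene with the second smallest p here, gave 18.4, 19.4, 18.3 and 21.8 CPM with DMSO and 21.2, 20.2, 21.8 and 26.4 CPM with AF, in which AF 4 was highest. Its log2 fold change was 0.20 ± 0.11 (SE), adjusted p = 0.22. PSMA2 to PSMA6 ran from 0.05 to 0.16 and were not called. PSMA8, a germ-cell variant of PSMA7, had 0 counts in all 8 libraries, and a count of 0 allows up to 3 counts, between 0.0889 and 0.159 CPM by library.

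Of the 4 beta subunits without a proteolytic site, none was called. PSMB1 gave 109.5, 118, 131 and 114 CPM in the DMSO libraries and 132, 126, 131 and 145 CPM in the AF libraries, where AF 4 was again highest and the groups overlapped. Its log2 fold change was 0.18 ± 0.06 (SE), adjusted p = 0.075, and its 95% interval was 0.04 to 0.31. PSMB3 gave 73.9, 87.0, 86.1 and 68.3 CPM with DMSO and 71.1, 73.1, 70.6 and 65.7 CPM with AF. DMSO 2 and 3 stood above the other 6 libraries, and DMSO 4 lay within the AF range. The log2 fold change of PSMB3 was -0.17 ± 0.08 (SE), adjusted p = 0.147. PSMB2 and PSMB4 had log2 fold changes of -0.03 and 0.08.

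None of the 3 constitutive catalytic subunits was called. PSMB5, the chymotrypsin-like subunit and the target of most proteasome inhibitor drugs, gave 45.5, 51.9, 52.2 and 43.4 CPM with DMSO and 48.2, 49.1, 49.8 and 46.4 CPM with AF. All 4 AF libraries lay inside the DMSO range, and the log2 fold change was 0.00 ± 0.07 (SE), adjusted p = 0.979, with an interval of -0.15 to 0.16. PSMB6, the caspase-like subunit, gave 31.5, 33.9, 32.5 and 30.0 CPM with DMSO and 29.8, 31.6, 29.4 and 28.4 CPM with AF, a log2 fold change of -0.10 ± 0.08 (SE), adjusted p = 0.462. PSMB7, the trypsin-like subunit, gave 92.1, 100.2, 102 and 90.6 CPM with DMSO and 94.7, 95.4, 90.3 and 91.9 CPM with AF. Its log2 fold change was -0.05 ± 0.06 (SE), adjusted p = 0.59, and both PSMB6 and PSMB7 overlapped between the groups.

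The inducible catalytic subunits were also not called, and their estimates differed in sign. PSMB8, which replaces PSMB5, gave 120.0, 119, 125 and 119 CPM with DMSO and 130.3, 129, 123 and 124 CPM with AF. AF 3 and 4 lay within the DMSO range. Its log2 fold change was 0.07 ± 0.05 (SE), adjusted p = 0.363. PSMB9, which replaces PSMB6, gave 47.1, 45.0, 43.0 and 42.2 CPM with DMSO and 53.9, 55.3, 50.4 and 41.5 CPM with AF. AF 1, 2 and 3 lay above every DMSO library, and AF 4 lay below every one of them. The log2 fold change of PSMB9 was 0.18 ± 0.08 (SE), adjusted p = 0.164. In the 8 fits that left out a library it ran from 0.13 to 0.26. PSMB9 was called in 1 of them, without AF 4 (adjusted p = 0.0153), and adjusted p reached 0.388 in the others. PSMB10, which replaces PSMB7, gave 36.5, 44.9, 42.0 and 36.1 CPM with DMSO and 36.8, 38.0, 35.5 and 33.3 CPM with AF, a log2 fold change of -0.15 ± 0.09 (SE), adjusted p = 0.265. PSMB11, the catalytic subunit of the thymic proteasome, had 3 counts in AF 3 and 0 in the other 7 libraries, too few to test.

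The exchange of subunits was compared within each library, as the log2 ratio of each inducible gene to the constitutive gene it replaces, which no scaling between libraries can move. The 3 ratios were tested by an exact two-sided permutation test over the 70 allocations of the 8 libraries, whose smallest possible p is 0.0286, with Benjamini-Hochberg adjustment over the 3. The log2 ratio of PSMB9 to PSMB6 was 0.58, 0.41, 0.40 and 0.49 in DMSO libraries 1 to 4 and 0.85, 0.81, 0.78 and 0.54 in AF libraries 1 to 4. Only AF 4 fell within the DMSO range. The AF mean of 0.75 ± 0.14 exceeded the DMSO mean of 0.47 ± 0.08 (SD, n = 4 each) by 0.28, exact permutation p = 0.0571, adjusted p = 0.0857. For PSMB8 to PSMB5 the difference was 0.06, exact permutation p = 0.371, and for PSMB10 to PSMB7 it was -0.10, exact permutation p = 0.0571, adjusted p = 0.0857. None of the 3 passed, and 1 ratio alone could not have, since a p at that smallest value becomes 0.0857 when adjusted over 3 of which the others are higher. Per base of principal transcript, PSMB8 stood at 2.89 times PSMB5 with DMSO and 3.01 times with AF, PSMB9 at 1.51 and 1.83 times PSMB6, and PSMB10 at 0.332 and 0.310 times PSMB7, so 2 of the 3 inducible genes were the more abundant of their pair in both groups. The level of PSMB10 is uncertain, since a second gene on its strand covers 45.3% of its exon bases.

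**Figure D2:**
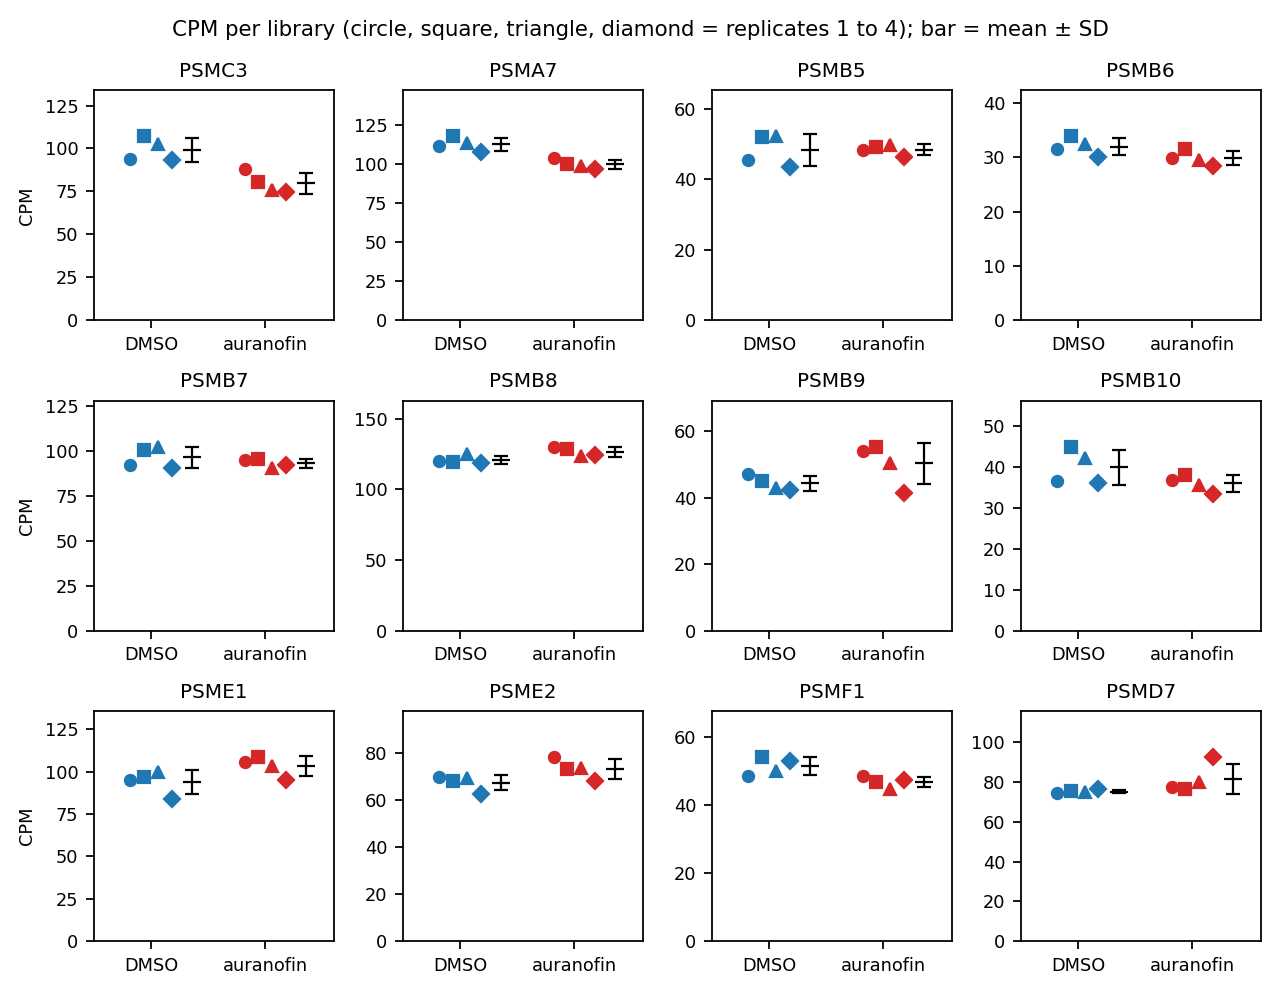
CPM of 12 proteasome genes in each library (y axis from 0), DMSO in blue and auranofin in red, with the shape of the point giving the replicate number and the bar the mean ± SD of 4 libraries. PSMC3, PSMA7 and PSMF1 have all AF points below the DMSO points and PSMD7 has all above, though only PSMC3 and PSMA7 were called. Of the 46 tested genes 3 lay wholly below and 1 wholly above, against 9.68% and 9.86% of all tested genes. PSMB5 has all its AF points inside the DMSO range, and in PSMB9 the AF 4 point (41.5 CPM) lies below the DMSO points.

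In the ATPase ring PSMC3 fell, and the other 5 genes were not called. PSMC3 encodes an ATPase whose tail docks into the alpha ring and helps to open the gate. On GRCh38 it lies on the minus strand of chromosome 11, from 47418769 to 47426473, and counts are summed over its exons. It gave 93.8, 107, 103 and 93.2 CPM in DMSO libraries 1 to 4 and 87.8, 80.8, 75.6 and 74.7 CPM in AF libraries 1 to 4. Every AF library lay below every DMSO library. Mean levels were 99.2 ± 6.86 CPM with DMSO and 79.7 ± 6.04 CPM with AF (SD, n = 4 each), a log2 fold change of -0.32 ± 0.07 (SE), or 0.803 times the DMSO level, with an adjusted p of 0.00515 in edgeR. The call held in each of the 8 fits that left out 1 library (adjusted p 0.00259 to 0.0242). In an earlier look at these counts libraries 1 and 4 of each group stood apart from libraries 2 and 3, a division that the labels do not give. The log2 fold change of PSMC3 was -0.21 in libraries 1 and 4 alone, where it was not called, and -0.42 in libraries 2 and 3 alone. Each fit held 2 libraries a group. The division came from these same counts, so p-values of these fits are not given.

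The other ATPase genes ran from -0.08 (PSMC4) to 0.16 (PSMC6), and none was called. PSMC2 gave 101, 102, 103 and 106 CPM with DMSO and 115, 107, 104 and 121 CPM with AF, a log2 fold change of 0.12 ± 0.06 (SE), adjusted p = 0.18. PSMC1 is uncertain, because its copy PSMC1P1 held 1.02 to 1.12 times as many counts in every library and shares 27.8% of its stretches of 50 bases. PSMC6 shares 24.7% of such stretches with a second gene.

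Among the 11 non-ATPase cap genes none was called, 9 estimates were above 0 and 2 below, and the median log2 fold change was 0.04. These genes encode the scaffold (PSMD1, PSMD2), the ubiquitin receptor PSMD4, the deubiquitinase PSMD14 with its partner PSMD7, and the horseshoe of the lid. PSMD6, a lid subunit, gave 42.2, 41.0, 42.3 and 44.3 CPM with DMSO and 46.8, 43.4, 45.9 and 52.8 CPM with AF. Its log2 fold change was 0.15 ± 0.07 (SE), adjusted p = 0.158. PSMD12, also of the lid, gave 47.8, 40.3, 45.8 and 46.1 CPM with DMSO and 49.9, 44.8, 49.4 and 59.6 CPM with AF, a log2 fold change of 0.18 ± 0.09 (SE), adjusted p = 0.179. In both genes AF 4 was the highest of the 8 libraries and AF 2 lay within the DMSO range. PSMD7 had all AF libraries (77.3, 76.5, 80.2 and 92.5 CPM) above all DMSO libraries (74.2, 75.5, 74.8 and 76.2 CPM), an arrangement found in 9.86% of all tested genes. The closest values, DMSO 4 and AF 2, nearly met, and the log2 fold change was 0.12 ± 0.06 (SE), adjusted p = 0.224. PSMD7 was given by library after its values were seen, and its counts may include the opposite-strand overlap given above. PSMD2 and PSMD4, at 196 and 182 CPM the non-ATPase genes with most counts under DMSO, had log2 fold changes of 0.00 and 0.03, and PSMD14 of 0.02.

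The activators and PI31 were not called. PSME1 and PSME2 form the interferon-inducible PA28 activator. PSME1 gave 95.2, 96.5, 99.7 and 83.8 CPM with DMSO and 106, 109, 103 and 94.9 CPM with AF, a log2 fold change of 0.14 ± 0.06 (SE), adjusted p = 0.166. PSME2 gave 69.8, 68.4, 69.3 and 62.7 CPM with DMSO and 78.4, 73.1, 73.6 and 68.3 CPM with AF, a log2 fold change of 0.12 ± 0.06 (SE), adjusted p = 0.196. In both genes library 4 was the lowest of its group, and the AF 4 value lay within the DMSO range. PSME3, the nuclear PA28 relative, gave 100.1, 107, 113 and 112 CPM with DMSO and 105, 104, 103 and 110.1 CPM with AF (log2 fold change -0.04, adjusted p = 0.684). PSME4, which encodes the activator PA200, gave 74.6, 78.7, 82.5 and 84.7 CPM with DMSO and 79.8, 71.2, 79.0 and 93.0 CPM with AF (log2 fold change 0.01, adjusted p = 0.944). PSMF1, which encodes PI31, gave 48.6, 54.2, 50.1 and 53.0 CPM with DMSO and 48.5, 46.8, 44.8 and 47.3 CPM with AF. Its groups did not overlap, although DMSO 1 and AF 1 nearly met, and its log2 fold change was -0.14 ± 0.06 (SE), adjusted p = 0.149.

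None of the 7 assembly chaperone genes was called. The 20S chaperone genes PSMG1 to PSMG4 guide formation of the alpha ring. PSMG1 gave 20.3, 22.4, 23.1 and 25.2 CPM with DMSO and 21.2, 20.3, 22.9 and 26.0 CPM with AF. PSMG2 gave 34.1, 34.6, 35.2 and 33.8 CPM with DMSO and 35.2, 33.4, 33.9 and 39.2 CPM with AF. PSMG3 gave 16.3, 15.2, 14.3 and 13.8 CPM with DMSO and 16.0, 14.2, 15.1 and 12.2 CPM with AF. For PSMG4 the values were 3.52, 4.42, 4.72 and 3.07 CPM with DMSO and 3.29, 3.77, 2.83 and 3.43 CPM with AF. All 4 overlapped between the groups, with log2 fold changes of -0.01, 0.04, -0.06 and -0.24 and a smallest adjusted p of 0.349. The base chaperones PSMD5, PSMD9 and PSMD10 hold ATPase subunits before the cap is complete. PSMD5 gave 21.8, 23.1, 19.5 and 24.3 CPM with DMSO and 21.1, 23.6, 24.2 and 27.2 CPM with AF. PSMD9 gave 13.1, 15.4, 12.3 and 14.2 CPM with DMSO and 15.1, 11.9, 12.5 and 10.8 CPM with AF, and both overlapped between the groups. Their log2 fold changes were 0.12 and -0.13, that of PSMD10 was 0.00, and the smallest adjusted p was 0.445.

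Within the groups, library 4 was often at an end of the range. AF 4 was the highest AF library for 19 genes and the lowest for 17, so it was at an end of its group for 36 of 46 (78.3%), against 67.3% of all tested genes and 73.1% of those of like level. DMSO 4 was the highest DMSO library for 15 genes and the lowest for 21, likewise 36 of 46, against 61.8% and 64.2%. Of these, 13 genes were highest in both (among them PSMA1, PSMA3, PSMA4, PSMC1, PSMC2, PSMC6, PSMD6 and PSMD7), 14 were lowest in both (among them PSMA7, PSMB3, PSMB5, PSMB6, PSMB9, PSMC3, PSME1 and PSME2), and 2 were at opposite ends. Library 4 was thus at the same end in both groups for 27 genes (58.7%), against 33.6% of all tested genes and 40.4% of those of like level, a difference that was not tested. As a description across the 46 genes, which share libraries and scaling, deviations from the group mean had a correlation of 0.60 between DMSO 4 and AF 4 and 0.58 between DMSO 2 and AF 2, and of -0.71 between DMSO 4 and AF 2 and -0.61 between DMSO 2 and AF 4. For libraries 1 the correlation was 0.20 and for libraries 3 it was -0.29. Deviations within a group cancel out for each gene, so these correlations depend on one another and centring sets part of their signs. What libraries 2 and 4 differ in was not tested.

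**Figure D3:**
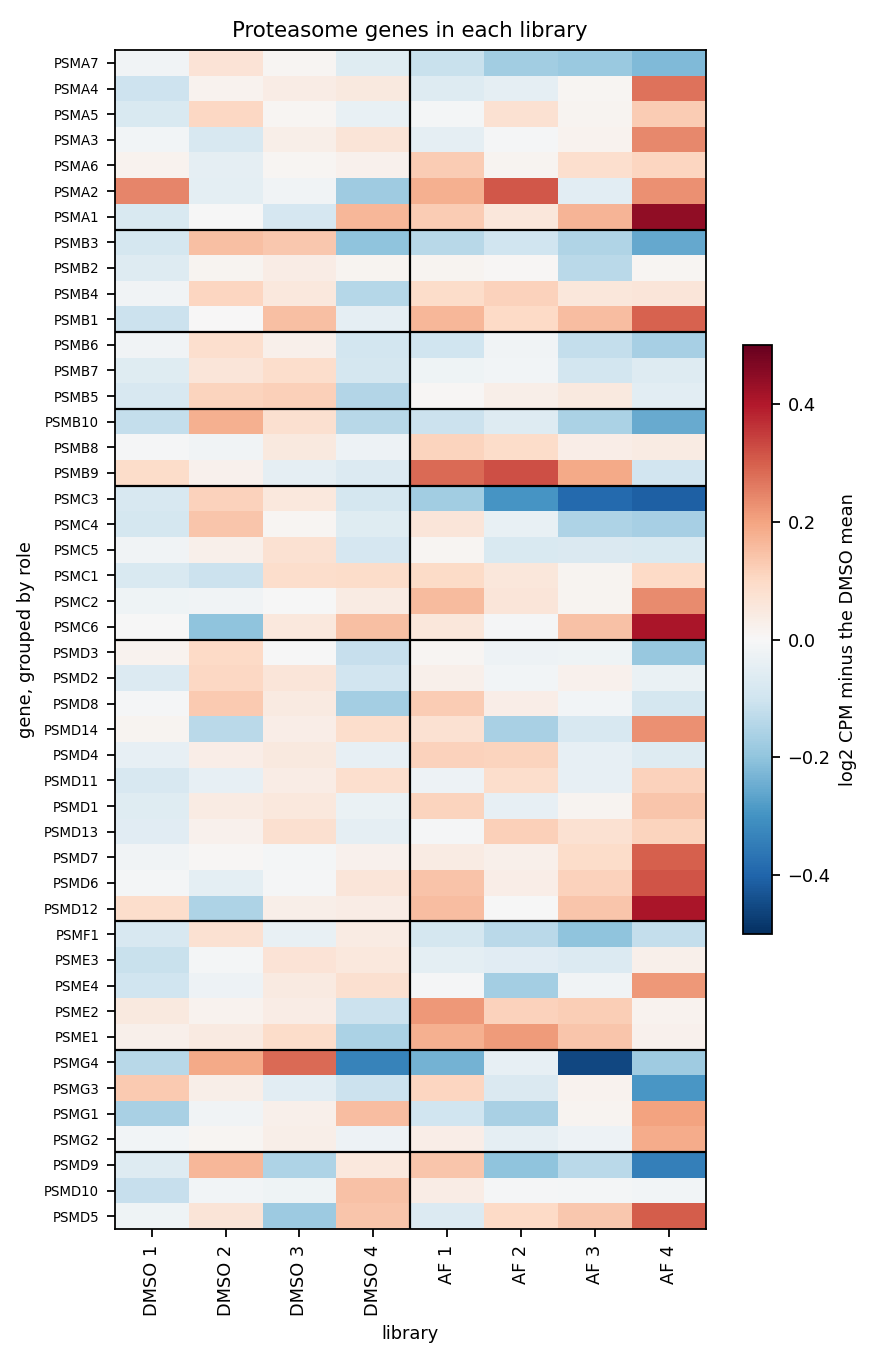
Each tested proteasome gene (rows, by role) in each library (columns), coloured by log2 CPM minus the mean of the 4 DMSO libraries. The PSMC3 row is blue in every AF library, and the AF 4 column holds most of the deepest reds and blues of the AF libraries.

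Genes that work with the proteasome under other names were described from 4 lists, of which 46 genes were tested. Of these 46 linked genes 8 rose and 2 fell, where 7.62% of all tested genes rose and 7.81% fell. The lists were drawn up with earlier results of these data known, so counts by list are a description and were not tested. Of 12 partners, ZFAND5, a ubiquitin-binding activator of the proteasome, rose and none fell. ZFAND5 gave 160.4, 135, 137 and 168 CPM with DMSO and 196, 202, 206 and 220.1 CPM with AF. Its AF libraries all exceeded its DMSO libraries, with a log2 fold change of 0.46 ± 0.07 (SE), adjusted p = 0.000637 in edgeR. POMP, the chaperone that completes the core, gave 68.9, 66.0, 75.2 and 81.2 CPM with DMSO and 70.9, 67.5, 67.0 and 81.4 CPM with AF, a log2 fold change of -0.02 ± 0.08 (SE), adjusted p = 0.883. TXNL1, a thioredoxin-like protein bound to the cap, gave 51.9, 49.0, 51.3 and 49.9 CPM with DMSO and 52.1, 50.2, 48.2 and 57.2 CPM with AF, a log2 fold change of 0.04 ± 0.06 (SE), adjusted p = 0.737. The deubiquitinase genes UCHL5 and USP14, named after their values were seen, had log2 fold changes of 0.03 ± 0.08 (SE) and 0.07 ± 0.07 (SE), with adjusted p of 0.857 and 0.515.

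Of the 7 genes of transcription control, 2 rose and 2 fell, where 7.62% of all tested genes rose and 7.81% fell. NFE2L1 gave 320.0, 302, 309 and 291 CPM with DMSO and 316, 335, 314 and 299.6 CPM with AF, which overlapped, and its log2 fold change was 0.05 ± 0.06 (SE), adjusted p = 0.648. NRF1 is regulated largely after translation, so its mRNA does not report its activity. DDI2, the protease that activates it, gave 54.2, 47.2, 50.5 and 53.8 CPM with DMSO and 61.9, 58.6, 59.1 and 62.9 CPM with AF, a log2 fold change of 0.24 ± 0.06 (SE), adjusted p = 0.0173, a call kept in 5 of the 8 fits without 1 library and lost without DMSO 2, DMSO 3 or AF 1 (adjusted p 0.0587 to 0.0730). NFE2L2, the antioxidant response regulator NRF2, gave 150.0, 144, 149.7 and 164 CPM with DMSO and 178, 184, 194 and 219 CPM with AF. It rose by a log2 fold change of 0.35 ± 0.07 (SE), adjusted p = 0.00269. NFYA, a subunit of the CCAAT-binding factor, gave 82.7, 81.7, 84.5 and 84.7 CPM with DMSO and 67.2, 68.1, 66.4 and 72.1 CPM with AF and fell, with a log2 fold change of -0.28 ± 0.05 (SE), adjusted p = 0.00181. NFYC, a second subunit, gave 745, 712, 682 and 706 CPM with DMSO and 650.4, 593, 559.6 and 613 CPM with AF. It fell, with a log2 fold change of -0.24 ± 0.07 (SE), adjusted p = 0.0334, a call kept in 2 of the 8 fits without 1 library, those without AF 1 or AF 4.

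Of the 16 genes of ubiquitin supply, unfolding and shuttling, SQSTM1 rose and none fell, against 7.62% and 7.81% of all tested genes. SQSTM1, an autophagy receptor for ubiquitin-tagged proteins, gave 251, 238, 239.7 and 238 CPM with DMSO and 296, 371, 340.2 and 252 CPM with AF, and the AF 4 value was the closest to the DMSO range. Its log2 fold change was 0.38 ± 0.09 (SE), adjusted p = 0.0135, and the call held in all 8 fits without 1 library.

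Of the 11 genes of peptide loading and its inducers, 4 rose and none fell, against 7.62% and 7.81% of all tested genes. TAP1, a subunit of the transporter that carries proteasome-made peptides into the endoplasmic reticulum, gave 112, 105, 105 and 103 CPM with DMSO and 127, 150.4, 146 and 114 CPM with AF. Its AF libraries lay above its DMSO libraries, AF 4 by the least, with a log2 fold change of 0.34 ± 0.08 (SE), adjusted p = 0.00749. RefSeq places the starts of TAP1 and PSMB9 488 bases apart in opposite orientation on chromosome 6, and PSMB9, with a log2 fold change of 0.18, was not called. Whether the 2 genes differ in response was not tested. NLRC5, the transactivator of MHC class I genes, gave 52.1, 50.3, 51.1 and 46.0 CPM with DMSO and 64.4, 66.3, 64.3 and 52.1 CPM with AF. AF 4 lay within the DMSO range. The log2 fold change was 0.31 ± 0.08 (SE), adjusted p = 0.0138, a call lost without AF 3 (0.0557). IRF1, an interferon-response transcription factor, gave 28.5, 28.0, 29.3 and 29.5 CPM with DMSO and 33.2, 36.4, 35.9 and 35.3 CPM with AF, a log2 fold change of 0.29 ± 0.08 (SE), adjusted p = 0.0254. CALR, a chaperone of the loading complex, gave 1979.8, 1959, 1944 and 1901 CPM with DMSO and 2331, 2427, 2347 and 2124 CPM with AF, a log2 fold change of 0.25 ± 0.07 (SE), adjusted p = 0.0345. In IRF1 and CALR every AF library exceeded every DMSO library. The IRF1 call was kept in 3 of the 8 fits without 1 library (without DMSO 4, AF 1 or AF 4) and the CALR call in 2 (without AF 1 or AF 4).

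**Figure D4:**
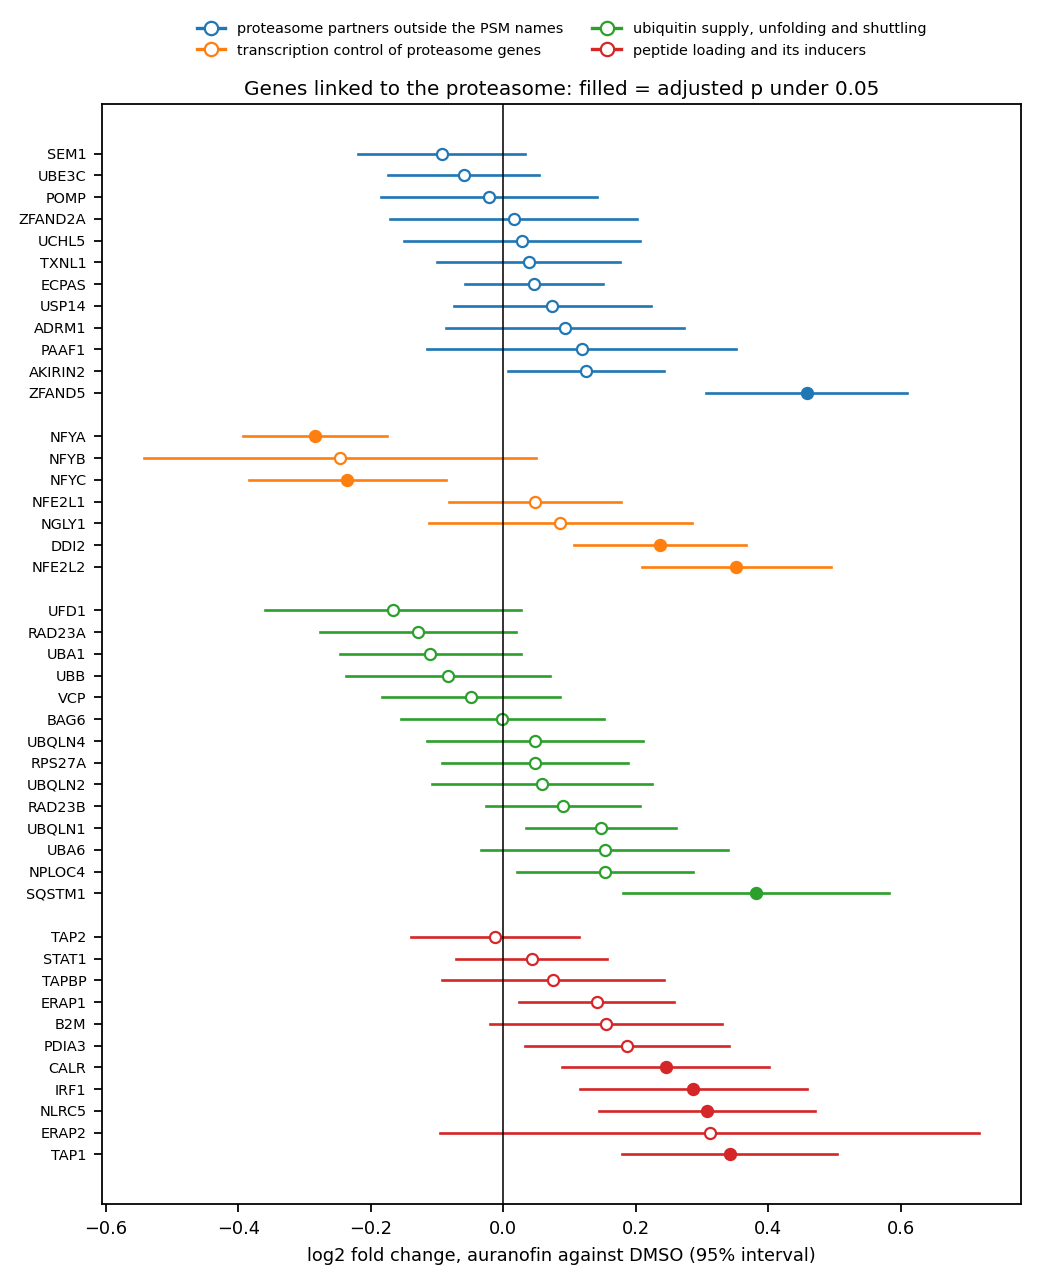
Log2 fold change of the linked genes, auranofin against DMSO (x axis), with 95% confidence intervals, grouped by list; filled circles are genes with an adjusted p under 0.05. The filled circles to the right of 0 are ZFAND5, DDI2, NFE2L2, SQSTM1, CALR, IRF1, NLRC5 and TAP1, and those to the left are NFYA and NFYC.

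The sequence cores named above were counted in all RefSeq windows of 300 bases (250 before and 50 after the start). TGACNNNGC was in 29.4% of the 51 proteasome windows and 13.3% of all 35116 windows, CCAAT in 39.2% and 34.6%, and GAAANNGAAA in 13.7% and 3.57%. Of the 15 tested genes with a TGACNNNGC match 0 were called, and their log2 fold changes ran from -0.17 (PSMB3) to 0.18 (PSMB9), with a median of 0.04. The 25 tested genes with a window and no such match had a median of 0.05. Of the 19 tested genes with a CCAAT box 1 fell, PSMC3, and their median was 0.01, against 0.06 for the 21 without. Of the 7 with GAAANNGAAA 0 were called, with a median of 0.07, against 0.04 for the 33 without. Among all tested proteasome genes 4.35% were called, and among all tested genes 15.4%. Sets this small cannot show whether a match goes with a call, and no such link was tested. PSMA7, the other called gene, had no window, so PSMC3 was the only called gene that these counts could hold. A match is a description of letters, not a bound site.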

How the data were processed

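The 8 libraries (4 DMSO, 4 auranofin, AF) of THP-1 foam cells are stranded poly-A libraries from 250 ng of total RNA each, per the labels' protocols. The values deposited by the authors are raw counts per gene in 1 table. The submitters' processing notes name STAR 2.6.1d, featureCounts, Subread 1.6.3 and GRCh38. Annotation, strand setting and handling of multi-mapped reads: not given in the sources used here. Columns were matched to samples by title.

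The whole table was fitted in edgeR 4.0.16 (R 4.3.3): TMM factors, filterByExpr (minimum count 10, minimum total 15), glmQLFit and glmQLFTest, two-sided, without a block (6 residual degrees of freedom), Benjamini-Hochberg adjustment over 17535 genes and a threshold of 0.05. Standard errors were obtained as log2 fold change over root F. Intervals are 95%. CPM use TMM-scaled library sizes. Depth was 19336073 to 32325981 counts per library, and without molecular identifiers counts are not independent molecules. The test was tried on simulated data first. No 2 libraries agreed within sampling noise (lowest chi-square per degree of freedom 2.95).

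The members, lists, tests and alternatives were chosen with earlier results of these data known. Values in every library are given for PSMB5 to PSMB10, PSME1 to PSME4, PSMF1, PSMG1 to PSMG4 and, in each other role group, the 2 genes with the smallest p, and for PSMD7, added after its values were seen. Among linked genes the rule took POMP, NFE2L1, TXNL1, TAP1 and up to 4 called genes a list. Some linked genes are counted but not reported here by name or in the plot. Positions, exon overlaps and shared 50-base stretches come from the principal transcripts of GENCODE 29, which may differ from the authors' annotation. Alternatives were DESeq2 1.42.0, other scalings and filters, blocks by replicate number or by the last number of the library name, libraries summed by name stem, libraries 1 and 4 or 2 and 3 alone, and leaving out each library.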

Additional observations from a re-analysis of the deposited data

Results flagged for a closer look

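Each gene's 4 libraries of a group were searched for a value far from the other 3 (Dixon's ratio above its 95% critical value), in 92 groups, and 3 were found, where chance gives about 1 in 20. PSMB2, a beta subunit, was at 65.5 CPM in AF 3, against 72.2 to 72.6 CPM in the other AF libraries. PSMC5, a cap ATPase, was at 87.1 CPM in AF 1, against 82.2 to 82.4 CPM in the others. PSMD10, a base chaperone, was at 23.7 CPM in AF 1, against 22.9 to 23.0 CPM in the others. None of the 3 genes was called between the groups.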

How the results depend on the processing

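Of the 46 proteasome genes, 2 were called lower and 0 higher. Scaling by library totals alone, into which the ribosomal RNA of AF 1 enters, gave 883 genes called in all instead of 2705, 0 proteasome genes lower, 0 linked genes higher and 0 lower, and a proteasome median of -0.12, where the median of all genes also moved, to -0.14. There PSMC3 had a larger log2 fold change of -0.48 with an adjusted p of 0.0879, and PSMA7 one of -0.33 with an adjusted p of 0.325. With no filter on low counts, with the last number of the library name as a block, or with libraries summed by name stem, 1 proteasome gene was lower, PSMC3, and summing left 1 linked gene lower. In the sum by name stem PSMA7, NFYC and CALR lost their calls (edgeR, adjusted p 0.0632, 0.0608 and 0.0742). Libraries 1 and 4 alone gave 212 genes, 0 proteasome genes lower, 0 linked genes higher, 0 linked genes lower and a proteasome median of 0.083. Libraries 2 and 3 alone gave 5354 genes, 1 proteasome gene higher (PSMB9) and 6 lower (PSMA7, PSMB3, PSMB10, PSMC3, PSMC4, PSMF1), 15 linked genes higher and 7 lower, and a median of -0.0279. The division was taken from these same counts, and libraries 2 and 3 were the closest pair of each group. Its counts of calls are therefore a description and no support. The causes were not tested. Leaving out each library gave 1616 to 2964 genes, 0 to 1 proteasome gene higher (PSMB1 without DMSO 3, PSMB9 without AF 4), 1 to 3 lower, 5 to 10 linked genes higher, 1 to 3 lower and a median of 0.01 to 0.06.

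The labels do not say that replicate numbers pair the libraries, and the numbers were not taken to pair them, since the correlation of same-numbered deviations over all tested genes was 0.0937, 0.129, 0.0288 and 0.192, not above 0.1 in every pair. Of the 4 DMSO libraries, 3 correlated best with the AF library of their own number, and DMSO 3 with AF 2 by little (0.0305), a hint from the data and not from the design. The replicate block gave 4188 genes, 3 proteasome genes higher (PSMB1, PSMB9, PSME1) and 3 lower (PSMA7, PSMB3, PSMC3), and 13 linked genes higher. PSMC3 was called under 17 of the 19 alternatives and PSMA7 under 8. Genes that were not called are counted as unmoved even where their sign changed, as it did for 31 of the 46 under at least 1 of the 19 alternatives, 20 apart from library totals alone. No called proteasome gene changed sign. No subunit ratio passed under any alternative, and several of those designs are too small to pass. Depth limits PSMG4, PSMA2, PSMA8 and PSMB11 most.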
